A study of Mus musculus with 6 samples.

Results

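A set of 10 genes that describe how epithelial or mesenchymal a cell is were followed in E0771 breast carcinoma cells with and without knockdown of lamin A/C. They were the cadherins Cdh1 and Cdh2, the junction and adhesion genes Epcam, Tjp1 and Ctnnb1, and the transcription factors Snai1, Snai2, Zeb1, Zeb2 and Twist1. They were chosen by name, as exact symbols in the first column of the table of counts, and 8 of the 10 had a row among its 10520 genes. Cdh1 and Cdh2 were not analysed here. Of the 8, 7 passed the filter on low counts that left 8969 genes for testing, and Zeb2 did not. Each of the 7 had UMIs in every library.

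E0771 is a breast adenocarcinoma line of C57BL/6 mice. The cells carried a puromycin-selected lentiviral vector, either the empty vector (shControl, 3 libraries) or one that expresses an shRNA against Lmna (shLmna, 3 libraries), and puromycin was added at 3 µg/ml 36 h after transduction. Both groups were therefore transduced and selected pools, not clones, and differed in the hairpin. Knockdown libraries carry shRNA4 in their titles and shLmna in their descriptions. The labels do not say whether the replicates were separate cultures, so the p-values measure the spread between these samples, which may be technical. The shControl libraries stood at positions 13 to 15 of plate 3 and the shLmna libraries at positions 16 to 18, so that plate position and group cannot be told apart.

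Epithelial cells are held together by adherens junctions, in which E-cadherin (Cdh1) binds its neighbours outside the cell and beta-catenin (Ctnnb1) inside, and by tight junctions, which zonula occludens 1 (Tjp1) links to actin. In an epithelial-mesenchymal transition the zinc finger factors Snai1, Snai2, Zeb1 and Zeb2 and the helix-loop-helix factor Twist1 repress junction genes, and N-cadherin (Cdh2) often takes the place of E-cadherin. The zinc finger factors bind E-boxes with the letters CACCTG, or CAGGTG on the other strand, in promoters such as that of Cdh1. Carcinoma cells are often found between the end states, with markers of both.

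MARS-seq reads the 3′ ends of mRNA, and a unique molecular identifier (UMI) on each molecule lets amplified copies count once. The libraries held 1846208 to 3242051 UMIs. Levels are given as CPM, the UMI count scaled to library size with TMM factors, and differences as log2 fold changes of shLmna over shControl from edgeR's quasi-likelihood test. By the study's criteria, differential expression needed an adjusted p below 0.05, a log2 fold change beyond 1 in either direction and a normalised count that averaged more than 5. Lmna itself was at 873 ± 62.8 CPM in the shControl and 381 ± 6.34 CPM in the shLmna libraries (SD, n = 3 each), a fall by 1.20 on the log2 scale (SE 0.13, adjusted p = 3.5e-05 by edgeR's quasi-likelihood test, adjusted by Benjamini-Hochberg), so the knockdown matched the labels in every library. Since these are bulk samples, fewer cells of a type and less RNA per cell cannot be told apart.

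A pair of libraries stood apart, 1 in each group. Melanoma markers, of which 7 of 8 had a row, summed to 1430 UMIs in shControl replicate 3 and 1663 UMIs in shLmna replicate 2, against 15 to 23 UMIs in the other 4 libraries. That is 0.0754% and 0.0636% of all UMIs. Pmel, a melanosome protein, had 450 and 499 UMIs there and 1 to 8 UMIs elsewhere, and Dct, an enzyme of melanin synthesis, had 271 and 306 UMIs and at most 1 UMI elsewhere. Their part in the results below was not tested beyond repeating the fits without both libraries, or with a term for carrying these transcripts. Of the 15 mammary epithelial markers, 8 had a row. Their summed level ran from 303 to 355 CPM in the shControl and from 332 to 359 CPM in the shLmna libraries, and most of it was Krt8, an epithelial keratin, with 276 ± 27.4 and 291 ± 15.4 CPM (SD, n = 3 each, adjusted p = 0.776 by edgeR). Krt18 was low, with 7 to 20 UMIs a library. Of the endothelial markers 1 of 8 had a row, Pecam1, with 2 to 7 UMIs a library. Of the leukocyte markers 5 of 10 had a row, and summed to 313 to 364 CPM against 345 to 404 CPM, mostly Laptm5, with 295 ± 25.1 and 333 ± 31.4 CPM. Cd14 fell by 1.30 and Lyz2 rose by 1.28 on the log2 scale (adjusted p = 0.00256 and 0.011 by edgeR). Without shControl replicate 1, Lyz2 missed the threshold (1.03, adjusted p = 0.052). The 4 of 8 fibroblast markers with a row summed to 18.6 to 18.8 CPM and 27.2 to 30.8 CPM.

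Of the 7 tested genes, 1 was differentially expressed by the study's criteria, Tjp1, and 2 had an adjusted p below 0.05, Tjp1 and Twist1, both higher in the knockdown. Among all 8969 tested genes, 5.71% met the criteria (3.97% higher and 1.74% lower) and 13.7% had an adjusted p below 0.05 (7.96% higher and 5.78% lower). The median log2 fold change of the 7 genes was 0.15, and that of all tested genes was 0.0033. The shControl and shLmna levels did not overlap for 4 of the 7, Epcam, Tjp1, Zeb1 and Twist1, where 32.5% of all tested genes did not overlap (16.8% higher and 15.7% lower).

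**Figure D1:**
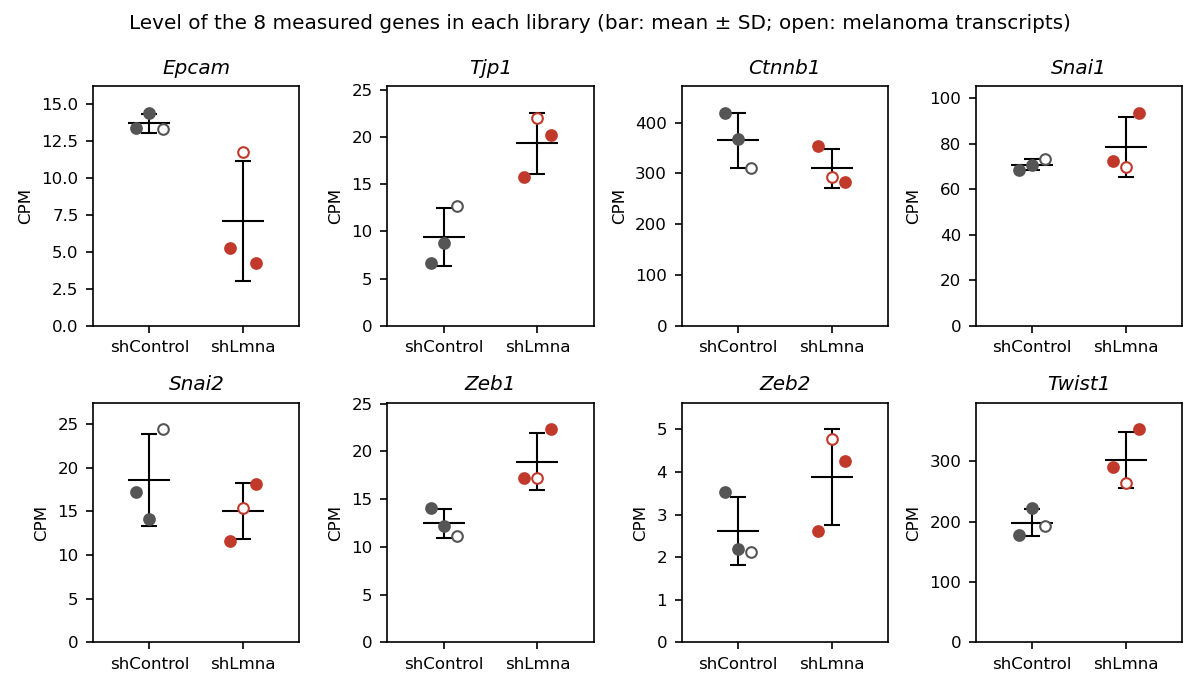
Level of each of the 8 measured genes in CPM (vertical axes, each starting at 0) in the 3 shControl and 3 shLmna libraries. Points are libraries, the horizontal bar is the mean and the whiskers are the SD, and open points mark the 2 libraries with melanoma transcripts. Tjp1, Zeb1 and Twist1 were higher in all 3 shLmna libraries than in any shControl library, and Epcam lower, with the open shLmna point of Epcam at 11.7 CPM nearest to the shControl points.

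The promoters of Epcam, Snai1 and Twist1 are shown, marked for the E-box letters that the zinc finger factors of this group bind. Binding was not measured. Promoter entries were matched for 6 of the 10 genes, and Cdh1, Cdh2, Snai2 and Zeb1 had none. The 250 bases before the start, from RefSeq (GRCm38.p6), are given 5′ to 3′ on the strand of the gene, with CACCTG or CAGGTG in capitals.
Epcam, chr17:87635729-87635978: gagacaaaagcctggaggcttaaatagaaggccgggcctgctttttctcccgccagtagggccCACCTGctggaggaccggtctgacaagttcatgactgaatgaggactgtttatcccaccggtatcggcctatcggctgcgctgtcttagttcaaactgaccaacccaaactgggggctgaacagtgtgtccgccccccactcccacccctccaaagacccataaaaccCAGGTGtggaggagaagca
Snai1, chr2:167537945-167538194: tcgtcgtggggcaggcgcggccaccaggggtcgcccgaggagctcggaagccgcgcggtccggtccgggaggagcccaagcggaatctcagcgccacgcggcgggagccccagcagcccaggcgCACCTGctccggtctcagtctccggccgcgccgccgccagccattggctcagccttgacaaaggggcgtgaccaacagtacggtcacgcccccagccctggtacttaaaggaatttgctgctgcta
Twist1, chr12:33957421-33957670: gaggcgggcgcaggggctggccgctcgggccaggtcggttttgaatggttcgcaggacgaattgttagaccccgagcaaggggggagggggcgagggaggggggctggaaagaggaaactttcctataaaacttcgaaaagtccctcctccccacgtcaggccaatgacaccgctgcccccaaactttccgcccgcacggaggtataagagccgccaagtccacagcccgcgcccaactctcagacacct
The Epcam promoter held the letters 2 times, with first bases 187 and 19 bases before the start, and the Snai1 promoter 1 time, 126 bases before it. No copy was found in this window of any entry for Twist1, Tjp1, Ctnnb1 or Zeb2, which says only that these letters are not there. Ctnnb1 and Zeb2 had more than 1 entry each. The Tjp1 entry, chr7:65371245-65371494, lies inside the annotated span of the gene, and 0 annotated Tjp1 transcripts held the bases that follow this window. Both strands were searched, and the 2 spellings are reverse complements. Of all 32851 promoters of this length, 17.2% held at least 1 copy and 2.06% held 2 or more.

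Epcam, an adhesion molecule on the surface of epithelial cells (chr17:87635979-87651129, + strand, GRCm38), was lower in the knockdown libraries. It had 34, 46 and 25 UMIs in shControl replicates 1 to 3, and 14, 32 and 8 UMIs in shLmna replicates 1 to 3. In CPM these were 13.3, 14.4 and 13.3 against 5.25, 11.7 and 4.25, so the groups did not overlap, and the shLmna library nearest to the shControl level was replicate 2, which carried the melanoma transcripts. The means were 13.7 ± 0.627 and 7.08 ± 4.07 CPM (SD, n = 3 each). Over all 6 libraries the log2 fold change was -0.90 (SE 0.34) and missed the threshold, with an adjusted p of 0.0909 by edgeR's quasi-likelihood test, adjusted by Benjamini-Hochberg. Without both libraries that carried melanoma transcripts Epcam fell by 1.51 on the log2 scale (SE 0.37, adjusted p = 0.00834), with 2 libraries against 2. With melanoma transcripts as a term it fell by 0.98 (adjusted p = 0.029). Leaving out shLmna replicate 2 alone gave a fall by 1.50 (adjusted p = 0.0137). With any of the other 5 libraries left out Epcam missed the threshold: the log2 fold change was -0.94 without shControl replicate 1 (adjusted p = 0.145), -0.87 without shControl replicate 2 (adjusted p = 0.25) and -0.93 without shControl replicate 3 (adjusted p = 0.0778). It was -0.71 without shLmna replicate 1 (adjusted p = 0.25) and -0.68 without shLmna replicate 3 (adjusted p = 0.263).

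Tjp1 (chr7:65296165-65527781, − strand), the scaffold protein of tight junctions, rose. It had 17, 28 and 24 UMIs in the shControl and 42, 60 and 38 UMIs in the shLmna replicates. The CPM were 6.67, 8.75 and 12.7 against 15.7, 22.0 and 20.2, with no overlap. The means were 9.39 ± 3.08 and 19.3 ± 3.24 CPM (SD, n = 3 each), a 2.10-fold difference (log2 fold change 1.07, SE 0.28, adjusted p = 0.0186 by edgeR's quasi-likelihood test, adjusted by Benjamini-Hochberg). Without both libraries that carried melanoma transcripts it was 1.19 (adjusted p = 0.0175). The call was lost when any of 4 libraries was left out: shControl replicate 1 (0.87, adjusted p = 0.0796), shControl replicate 2 (1.02, adjusted p = 0.102), shLmna replicate 2 (0.96, adjusted p = 0.074) or shLmna replicate 3 (1.04, adjusted p = 0.07).

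The counted 3′ end of Tjp1 is poor in G and C. The last 1000 bases of its transcript held 34.4% GC, against a median of 47.1% over the tested genes, and the median log2 fold change was 0.30 in the 913 genes with the lowest GC content (27.1% to 37.1%), while the medians of the other 9 bins of similar size lay between -0.07 and 0.08. When each library was corrected for GC content, the log2 fold change of Tjp1 was 0.58 (SE 0.23, adjusted p = 0.101 by edgeR), and 0.59 (adjusted p = 0.12) with the replicate number as a block as well. Snai2, with 33.5% GC, was also shifted down by the same correction, from -0.29 to -0.85. The part of GC content in these differences was not tested further.

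**Figure D2:**
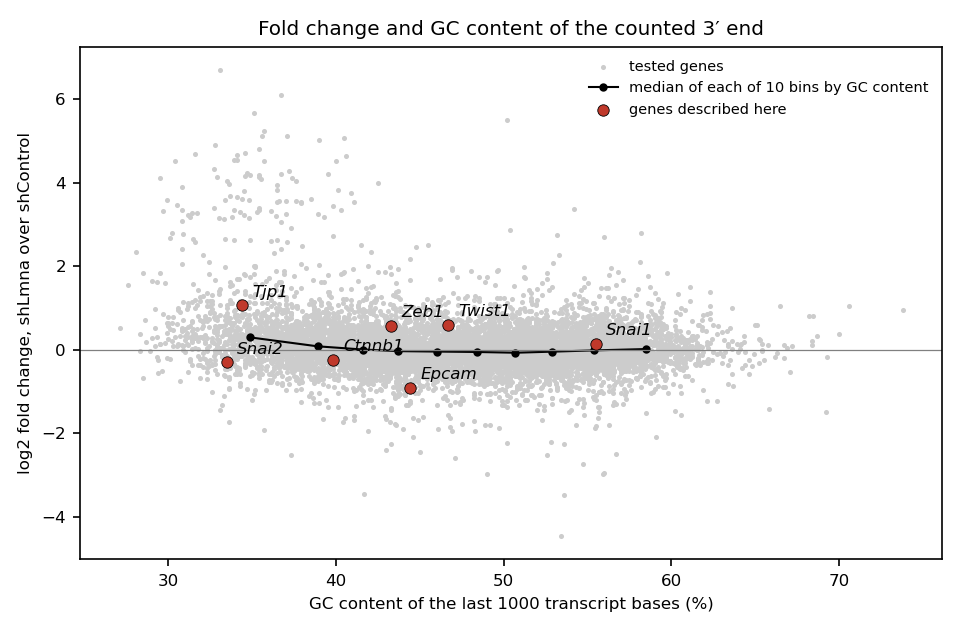
Log2 fold change of shLmna over shControl (vertical axis) against the GC content in percent of the last 1000 transcript bases (horizontal axis) for the tested genes (grey points), with the median of each of 10 bins of genes by GC content (black line) and the 7 tested genes described here (red). Tjp1 and Snai2 lie in the bin with the lowest GC content, where the median is 0.30.

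Ctnnb1 (chr9:120929216-120960507, + strand) encodes beta-catenin, which joins cadherins to the actin skeleton and carries the Wnt signal into the nucleus. It had 1067, 1176 and 584 UMIs in the shControl and 945, 799 and 533 UMIs in the shLmna replicates, or 418, 368 and 310 CPM against 354, 293 and 283 CPM, and the groups overlapped. The means were 365 ± 54.3 and 310 ± 38.3 CPM (SD, n = 3 each). The log2 fold change was -0.24 (SE 0.15, adjusted p = 0.335 by edgeR). Its counted end overlaps Ulk4 on the opposite strand, and whether the counting used strand is not given in the sources used here.

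Twist1 (chr12:33957671-33959829, + strand), the helix-loop-helix factor, rose. It had 455, 713 and 364 UMIs in the shControl and 775, 717 and 664 UMIs in the shLmna replicates. In CPM these were 178, 223 and 193 against 290, 263 and 353, and the lowest shLmna library was above the highest shControl library. The means were 198 ± 22.7 and 302 ± 46.1 CPM (SD, n = 3 each), a 1.52-fold difference (log2 fold change 0.61, SE 0.15, adjusted p = 0.0163 by edgeR's quasi-likelihood test, adjusted by Benjamini-Hochberg). It stayed below the fold that the study's criteria ask for. Without both libraries that carried melanoma transcripts the log2 fold change was 0.68 (adjusted p = 0.012). Without shControl replicate 1 it was 0.52 (adjusted p = 0.0669) and without shLmna replicate 3 it was 0.48 (adjusted p = 0.084), both missing the threshold.

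Zeb1 (chr18:5591860-5775467, + strand), the zinc finger repressor, had 36, 39 and 21 UMIs in the shControl and 46, 47 and 42 UMIs in the shLmna replicates. The CPM were 14.1, 12.2 and 11.1 against 17.2, 17.3 and 22.3, with no overlap. The means were 12.5 ± 1.51 and 18.9 ± 2.94 CPM (SD, n = 3 each). The log2 fold change of 0.58 (SE 0.24) missed the threshold, with an adjusted p of 0.118 by edgeR's quasi-likelihood test, and without both libraries that carried melanoma transcripts it was 0.58 (adjusted p = 0.198). Its relative Zeb2 (chr2:44983632-45117395, − strand) had 9, 7 and 4 UMIs against 7, 13 and 8 UMIs, or 2.61 ± 0.794 and 3.88 ± 1.12 CPM (SD, n = 3 each). These counts overlapped and were below the filter, so Zeb2 was not tested with the others. In a fit without the filter its log2 fold change was 0.54 (SE 0.48, adjusted p = 0.509 by edgeR).

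Snai1 (chr2:167538195-167542814, + strand), the Snail repressor, had 174, 226 and 138 UMIs in the shControl and 193, 190 and 176 UMIs in the shLmna replicates. The CPM were 68.2, 70.7 and 73.2 against 72.3, 69.8 and 93.6, so that shLmna replicate 3 stood above an otherwise overlapping set. The means were 70.7 ± 2.49 and 78.6 ± 13.1 CPM (SD, n = 3 each), with a log2 fold change of 0.15 (SE 0.16, adjusted p = 0.599 by edgeR). Snai2 (chr16:14705852-14709385, + strand), the Slug repressor, had 44, 45 and 46 UMIs against 31, 42 and 34 UMIs. Its CPM of 17.3, 14.1 and 24.4 and of 11.6, 15.4 and 18.1 overlapped, with means of 18.6 ± 5.29 and 15.04 ± 3.25 CPM (SD, n = 3 each). The log2 fold change was -0.29 (SE 0.27, adjusted p = 0.518 by edgeR). Without both libraries that carried melanoma transcripts it was -0.10 (adjusted p = 0.873). With 1 library left out it was lowest at -0.47 without shControl replicate 2 (adjusted p = 0.384), nearest to 0 at -0.08 without shControl replicate 3 (adjusted p = 0.875), and -0.14 without shLmna replicate 1 (adjusted p = 0.801). After the GC correction Snai2 fell by 0.85 on the log2 scale (adjusted p = 0.0205), or by 0.84 with the replicate block as well (adjusted p = 0.0338).

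**Figure D3:**
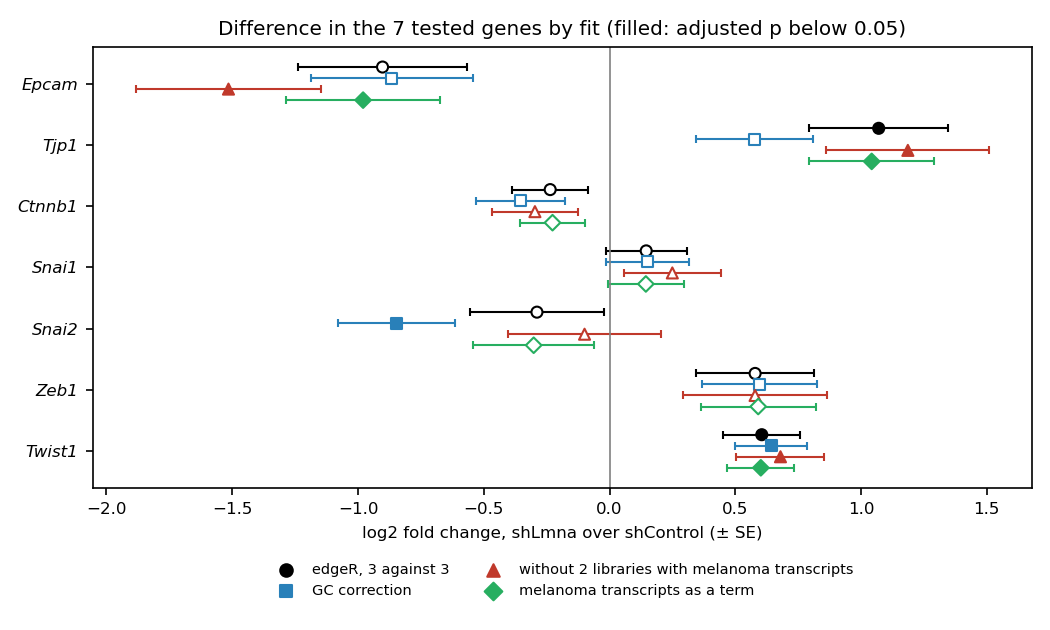
Log2 fold change of shLmna over shControl (horizontal axis, whiskers are SE) of the 7 tested genes in 4 edgeR fits: over all 6 libraries, after the GC correction, without the 2 libraries that carried melanoma transcripts, and with those transcripts as a term. Filled symbols have an adjusted p below 0.05. Twist1 was filled in all 4 fits, Tjp1 in all but the GC correction (0.58), Epcam only in the fits that take the melanoma transcripts into account, and Snai2 only after the GC correction.

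The genes whose levels ran most like Tjp1 over the 6 libraries, by Pearson correlation of log2 CPM, were Insig2, Anxa4 and Arf6, with r of 0.994, 0.994 and 0.993. The 6 points share libraries, depth and group. Within each group, Tjp1 and each of these genes were highest in the library that carried melanoma transcripts. Tjp1 was at 12.7 CPM in shControl replicate 3 and 22.0 CPM in shLmna replicate 2, and Arf6 at 5.84 and 21.7 CPM. The part of these libraries in the correlations was not tested. Arf6, a small GTPase of membrane traffic, had 1, 3 and 11 UMIs against 23, 59 and 28 UMIs and rose with a log2 fold change of 2.87 (adjusted p = 0.00461 by edgeR). Insig2, a regulator of sterol synthesis, had a log2 fold change of 0.46 (adjusted p = 0.188), and Anxa4, a calcium-dependent membrane binder, of 0.29 (adjusted p = 0.293).

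The other genes of the same pathways were taken from 6 lists, which do not hold the 10 genes themselves. In each list, the members with an adjusted p below 0.05 are counted against the 13.7% of all tested genes. Mesenchymal markers had the highest share. Of 27, 23 had a row and 19 were tested, and 11 rose and 2 fell, 13 of 19 in all, with a median log2 fold change of 0.74. Without both libraries that carried melanoma transcripts 12 were called, and with 1 library left out 9 to 12 were. Those that met the study's criteria were mostly genes of the extracellular matrix and its turnover. Sparc, a matrix glycoprotein, had 45, 68 and 103 UMIs against 211, 271 and 211 UMIs (log2 fold change 1.69, SE 0.31, adjusted p = 0.00231 by edgeR). Tgfbi, a matrix protein induced by TGF-beta, rose by 1.74 (SE 0.23), the collagen crosslinking enzyme Loxl2 by 1.54 (SE 0.25) and the gelatinase Mmp2 by 1.20 (SE 0.24) on the log2 scale.

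Acta2, smooth muscle actin, rose by 2.18 (SE 0.37) on the log2 scale, from 7, 13 and 3 UMIs to 26, 41 and 31 UMIs. S100a4, a calcium-binding protein of motile cells, rose by 1.09 (SE 0.14), and its counted end overlaps Gm42674 on the same strand. Col3a1, a fibrillar collagen, was at 0 UMIs in all 3 shControl libraries and had 13, 12 and 12 UMIs in the shLmna libraries, at least 4.22-fold higher against a floor of 3 UMIs in each library. With Col3a1 at that bound the median of the list is the same. Vim, the mesenchymal intermediate filament, was at 5229 ± 445 and 5933 ± 422 CPM (SD, n = 3 each) with a log2 fold change of 0.18 (adjusted p = 0.414). The 4 measured genes of acute stress and RNA quality, of 10 listed, moved with the groups as well: their summed level was 333 to 340 CPM in the shControl and 150 to 162 CPM in the shLmna libraries, and their part in these differences was not tested. Atf3 fell by 1.71, Hspa1b by 1.20, Jun by 0.97 and Malat1 by 0.80 on the log2 scale. Leaving out shControl replicate 2 took Hspa1b and Malat1 past the limit (adjusted p = 0.0772 and 0.111 by edgeR), as did leaving out shLmna replicate 1 (0.121 and 0.0888), and Hspa1b was also lost without shLmna replicate 3 (0.133) and Malat1 without shLmna replicate 2 (0.077).

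**Figure D4:**
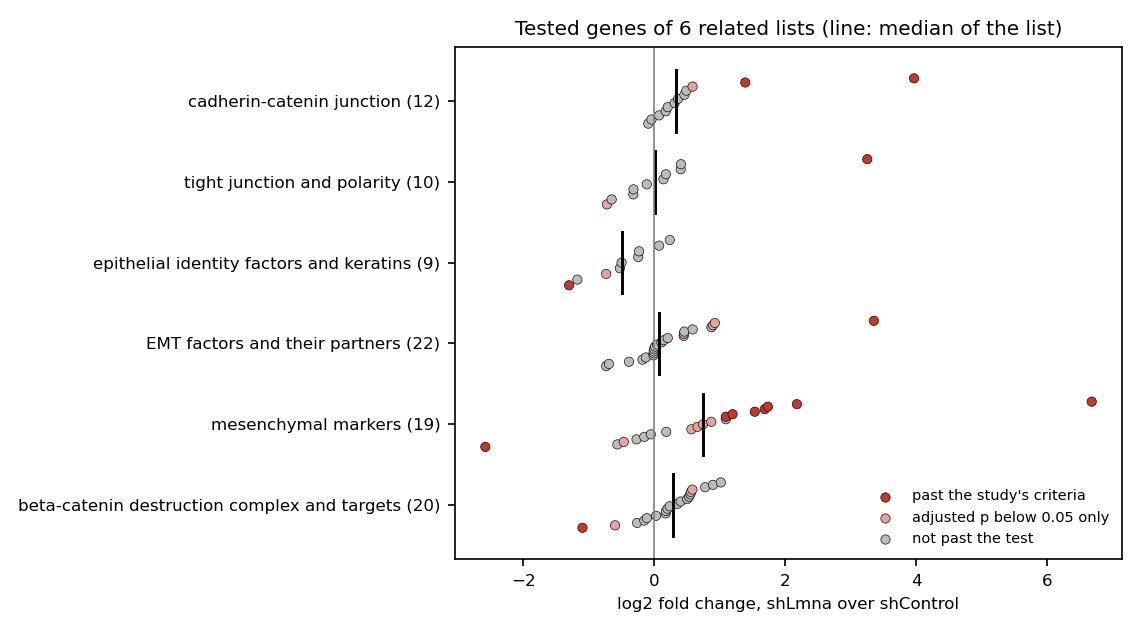
Log2 fold change of shLmna over shControl (horizontal axis) of each tested gene in 6 lists of related genes (number tested in brackets). Points are genes, coloured by the study's criteria, by an adjusted p below 0.05 alone, or not past the test, and the black line is the median of the list. The mesenchymal markers have the highest median, 0.74, and the epithelial identity genes the lowest, -0.50. The point of Col3a1 is a fitted value that depends on the prior count.

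Of 29 epithelial identity factors and keratins, 13 had a row and 9 were tested, and 2 had an adjusted p below 0.05, both lower. The log2 fold change was negative for 7 of the 9, where 4448 of the 8969 tested genes were negative, and the median of the list was -0.50. Krt8, its gene of highest mean count, had a log2 fold change of 0.07 (adjusted p = 0.776 by edgeR). St14, the membrane protease matriptase, had 89, 134 and 58 UMIs against 40, 43 and 24 UMIs (log2 fold change -1.30, SE 0.21, adjusted p = 0.00108 by edgeR), and Ovol1, a repressor of mesenchymal genes, fell by 0.74 (adjusted p = 0.0442). Ovol1 missed the threshold without any 1 of the 6 libraries, with adjusted p from 0.0618 to 0.123. Klf5, a zinc finger factor of epithelia, and the plakophilins Pkp2 and Pkp3 had log2 fold changes of -0.23, 0.24 and -0.25 and did not pass the test. After the GC correction Klf5, with 32.8% GC, was at -0.88 (adjusted p = 0.00997 by edgeR). Pkp2 and Pkp3 were then at 0.25 and -0.28 (adjusted p = 0.32 and 0.43 by edgeR). The list's count was 1 without both libraries that carried melanoma transcripts, and 1 without any of shControl replicates 1, 2 and 3 or shLmna replicates 1 and 2.

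Of the other cadherin-catenin junction genes, 13 of 21 had a row and 12 were tested, 3 with an adjusted p below 0.05, all higher, with a median log2 fold change of 0.34. Pvrl3, the adhesion molecule nectin 3, had 9, 20 and 14 UMIs against 30, 42 and 35 UMIs and rose by 1.39 (SE 0.33, adjusted p = 0.0111 by edgeR). It missed the threshold without shControl replicate 2 (1.49, adjusted p = 0.0554) or without shLmna replicate 3 (1.23, adjusted p = 0.0643). Cbll1, the ubiquitin ligase Hakai that binds E-cadherin, had 0, 0 and 5 UMIs against 23, 46 and 14 UMIs and rose by 3.97 (SE 0.72, adjusted p = 0.0023 by edgeR), where DESeq2 gave an adjusted p of 0.123. All the shControl UMIs of Cbll1 were in replicate 3, which carried melanoma transcripts, and without both such libraries the fitted log2 fold change was 7.39, a value that depends on the prior count since the remaining controls were at 0. It was 7.87 without shControl replicate 3 alone. Vcl, the actin linker vinculin, rose by 0.58 (adjusted p = 0.0285), and after the GC correction its adjusted p was 0.408. Without any 1 of the 6 libraries Vcl had an adjusted p from 0.051 to 0.128. Its counted end overlaps Ap3m1 on the opposite strand. Ctnna1, which links beta-catenin to actin, had a log2 fold change of -0.09 (adjusted p = 0.715), and the afadin gene, listed as Mllt4, 0.36 (adjusted p = 0.102). The list's count was 1 without shControl replicate 2 or shLmna replicate 3.

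Tight junction and polarity genes had 13 of 26 with a row and 10 tested, with a median log2 fold change of 0.01 and 1 called in each direction at an adjusted p below 0.05. Cldn12, a claudin, had 0, 0 and 5 UMIs against 14, 26 and 10 UMIs and rose by 3.25 (SE 0.75, adjusted p = 0.0102), where DESeq2 gave an adjusted p of 0.233. Its shControl UMIs were likewise all in replicate 3, and the fitted value was 6.78 without both libraries that carried melanoma transcripts and 7.16 without shControl replicate 3 alone, with the same dependence on the prior count. It also missed the threshold without shControl replicate 2 (2.50, adjusted p = 0.0955). The polarity genes Scrib, Pard3 and Llgl1 had log2 fold changes of 0.41, -0.11 and 0.18, and Ybx3, a binding partner of Tjp1 also known as ZONAB, of -0.32, none past the test. The list's count was 1 without shControl replicate 2 or shLmna replicate 1.

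Of 30 EMT factors and their partners, 25 had a row and 22 were tested. The median log2 fold change was 0.07, and 4 rose with an adjusted p below 0.05. The inhibitors of helix-loop-helix factors, Id1, Id2 and Id3, were 3 of them. Id1 had 759, 894 and 478 UMIs against 1352, 1120 and 1140 UMIs and rose by 0.87 (SE 0.16, adjusted p = 0.00214 by edgeR), Id2 by 0.93 (adjusted p = 0.00536) and Id3 by 0.45 (adjusted p = 0.0312) on the log2 scale. Id3 missed the threshold without any 1 of the 6 libraries, with adjusted p from 0.0502 to 0.151, and Id2 without shControl replicate 2 (0.81, adjusted p = 0.0562). Fbxo11, a ubiquitin ligase subunit that targets Snail proteins, had 0, 5 and 3 UMIs against 21, 31 and 28 UMIs and rose by 3.36 (SE 0.54, adjusted p = 0.000875), and its counted end overlaps Msh6 on the opposite strand. Ctbp1, a corepressor bound by Zeb1, had a log2 fold change of -0.13 (adjusted p = 0.556). The list's count was 2 without shControl replicate 2.

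Of 32 genes of the beta-catenin destruction complex and of its targets, 24 had a row and 20 were tested, with a median log2 fold change of 0.29, 2 higher and 2 lower at an adjusted p below 0.05. Myc, a target of the Wnt pathway and of many others, had 1543, 1842 and 1150 UMIs against 765, 785 and 491 UMIs and fell by 1.10 on the log2 scale (SE 0.13, adjusted p = 7e-05 by edgeR). Ccnd1, cyclin D1, had a log2 fold change of 0.35 (adjusted p = 0.106) and Gsk3a, a kinase of the complex, of 0.03 (adjusted p = 0.935). Pygo2 and the coreceptor Lrp5 rose by 0.53 and 0.58, and the repressor Tcf7l1 fell by 0.60 on the log2 scale. With any 1 of the 6 libraries left out the adjusted p of Pygo2 was 0.0631 to 0.126 and that of Lrp5 0.0633 to 0.135, and Tcf7l1 missed the threshold in 5 of the 6 cases, all but shControl replicate 3. Without both libraries that carried melanoma transcripts, without any of shControl replicates 1 and 2, or without any of the 3 shLmna replicates, 1 gene of the list was called.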

How the data were processed

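RNA of 6 E0771 libraries was measured by MARS-seq. The authors trimmed reads with Cutadapt, mapped them to mm10 with STAR 2.4.2a and counted UMIs with a modified HTSeq in the last 1000 bases of RefSeq genes and 100 bases downstream; these deposited counts are whole numbers without normalization, and each gene listed reaches 6 or more in some library. The authors' deposited log2 values were normalized and corrected with ComBat for a batch that is not named, and were used only for a check of direction. Their DESeq2 table holds mean normalized counts, log2 fold changes and p-values of their own comparison and was not used.

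The counts were fitted in edgeR 4.0.16 (R 4.3.3): filterByExpr with a minimum count of 10, TMM scaling, and the quasi-likelihood test with Benjamini-Hochberg adjustment over 8969 genes. CPM use TMM-scaled library sizes, and an SE is the log2 fold change divided by the square root of its F. Alternatives were DESeq2 1.42.0, limma-voom (limma 3.58.1), other scalings and filters, the replicate number as a block, a loess GC correction of span 0.3 and degree 2, and leaving out each library. The fits without the 2 libraries that carry melanoma transcripts, and with those transcripts as a term, were added after seeing the data. Annotation came from GENCODE M21 (GRCm38), whose transcripts can differ from those counted. Scripts were tested on simulated data.

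The 10 genes and the lists were chosen with earlier results of these data known. Named genes are the 10, Lmna, each list's differentially expressed genes, filled to 4 by mean count where fewer passed, and the 3 genes most like a differentially expressed one. Genes named beyond this rule (Ovol1, Vcl, Lrp5 and Tcf7l1, which passed an adjusted p below 0.05) were chosen after their values were seen. Some results are not reported here.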

Additional observations from a re-analysis of the deposited data

How the results depend on the processing

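All 7 tested genes and Lmna kept their direction under all alternatives that tested them, and Lmna, Snai1, Zeb1 and Ctnnb1 also their side of the threshold. In the deposited ComBat log2 values the difference of each of the 8 genes had the same sign. With 1 library left out, the log2 fold change ran from -1.50 to -0.68 for Epcam, from 0.48 to 0.70 for Twist1 and from 0.87 to 1.29 for Tjp1, and 0 to 1 of the 10 genes met the criteria, 0 to 2 having an adjusted p below 0.05. At 0, in edgeR, 2 to 4 genes had an unadjusted p below 0.05. Without the 2 libraries that carry melanoma transcripts Epcam was at -1.51 and 2 genes met the criteria, and with the transcripts as a term Epcam was at -0.98. After the GC correction Tjp1 was at 0.58 and Snai2 at -0.85, and 0 of the genes met the criteria (5 with an unadjusted p below 0.05 in edgeR, while DESeq2 and limma-voom without the correction called 1 each). A mean count of at least 50 left 0 meeting the criteria and 1 with an adjusted p below 0.05, Twist1, since fewer genes were tested.

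Counts of listed genes with an adjusted p below 0.05 moved as follows. With a mean count of at least 50 they were 1 for cadherin-catenin junction, 1 for tight junction, 1 for epithelial identity and 7 for mesenchymal genes. With melanoma transcripts as a term they were 5 for cadherin-catenin and 4 for tight junction genes. DESeq2 gave 1 for tight junction and 1 for epithelial identity genes, which upper-quartile and total-count scaling also put at 1, the GC correction at 4 and the fit without the 2 libraries at 1. The beta-catenin list was at 1 without those 2 libraries. With 1 library left out the ranges were 1 to 4 for cadherin-catenin, 1 to 2 for tight junction and 1 to 2 for epithelial identity genes. They were 2 to 3 for EMT factors, 9 to 12 for mesenchymal markers and 1 to 3 for the beta-catenin list. Among all tested genes 356 higher and 156 lower became 112 and 46 at a mean count of at least 50, and the lower ones ran from 92 to 192 with 1 library left out, 92 without shControl replicate 2. The cause of these shifts was not tested.

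Same-numbered libraries deviated together with correlations of 0.35, -0.11 and 0.0052, so the numbers do not pair the samples. A replicate block gave 518 genes that met the criteria, against 512, and 1 of the 10 did. The block together with the GC correction gave 0.59 for Tjp1, -0.84 for Snai2, 7 EMT factors and 0 of the 10 genes meeting the criteria (6 with an unadjusted p below 0.05 in edgeR). It also lowered the share of called genes that were higher from 69.5% to 59.4%.

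Epcam, Tjp1, Zeb1 and Snai2 rest on 8 to 60 UMIs a library and Zeb2 on 4 to 13, which limits the precision of their folds.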
